A study of Mus musculus with 8 samples.

Results

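The 10 genes described here encode the parts of the MHC class I antigen presentation pathway, namely the heavy chains H2-K1, H2-D1 and H2-T23, their light chain B2m, the peptide transporter subunits Tap1 and Tap2, the loading factor Tapbp, the immunoproteasome subunits Psmb8 and Psmb9, and the transactivator Nlrc5. They were chosen by name, with earlier results of these data known, from 23146 genes with a symbol counted in mouse epidermis. Each was represented by the RefSeq transcript with the largest total count. All 10 passed the filter on low counts, which left 16342 genes for testing. Epidermis was taken at embryonic stages E15.5 and E17.5 from control embryos, which carried floxed Nir (Noc2l) alleles, and from embryos that carried the floxed alleles together with Krt14-Cre and are labelled Nir KO. The 4 groups are E15.5 control, E15.5 knockout, E17.5 control and E17.5 knockout, with 2 libraries in each, and floxed alleles are common to all of them. The keratin 14 promoter drives Cre in basal keratinocytes and their progeny, and other cells in the preparation are not its intended target. Where deletion occurred in these embryos is not in the labels. The labels give no strain, litter, sex or number of embryos per library, and the p-values therefore measure only the spread between these libraries, which may be technical.

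Class I molecules display peptides from a cell's own proteins at its surface. The proteasome cuts the peptides, the TAP transporter carries them into the endoplasmic reticulum, tapasin bridges TAP to an empty heavy chain bound to beta-2-microglobulin, and the loaded complex is read at the surface by CD8 T cells and natural killer cells. Interferons raise many genes of the pathway, acting through STAT and IRF transcription factors and through NLRC5, and keratinocytes are known to respond to them. Class I molecules are made by most nucleated cells, with high levels in leukocytes and endothelium.

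The class I genes lie close together. On chromosome 17 (GRCm38.p6), the RefSeq spans are 33919478 to 33929290 for Tapbp, 33996012 to 34000619 for H2-K1, 34182030 to 34187330 for Psmb9, 34187556 to 34197225 for Tap1, 34198195 to 34201454 for Psmb8, 34204479 to 34216321 for Tap2, 35263094 to 35267497 for H2-D1 and 36029977 to 36032701 for H2-T23. B2m lies on chromosome 2 from 122147687 to 122153082, and Nlrc5 on chromosome 8 from 94434335 to 94527272. Upstream sequences from RefSeq (GRCm38.p6) were found for 8 of the 10 genes, all but Tap2 and Nlrc5. The 250 bases before the start are shown for 5 of them, since control elements of the pathway are known from such upstream stretches. A link between these letters and the changes in level was not tested. Capitals mark matches, on either strand, to 5 short motifs. The ISRE core (interferon-stimulated response element) is GAAA, any 2 bases and GAAA, the GAS core (gamma-activated sequence) is TTC, any 3 bases and GAA, the X2 box core is TGACG, the Y box core is ATTGG, and the kappa B core is GGG, any 5 bases and CC. The H2-K1 window precedes the start used in the promoter table and lies within the longest RefSeq span of the gene. Matches to one motif may overlap.
H2-K1, chr17:34000348-34000597, minus strand: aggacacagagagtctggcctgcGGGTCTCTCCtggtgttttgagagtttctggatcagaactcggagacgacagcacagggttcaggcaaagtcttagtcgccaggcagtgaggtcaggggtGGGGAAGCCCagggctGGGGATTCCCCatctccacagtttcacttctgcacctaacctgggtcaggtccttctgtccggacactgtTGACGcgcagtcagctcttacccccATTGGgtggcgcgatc
H2-D1, chr17:35262844-35263093, plus strand: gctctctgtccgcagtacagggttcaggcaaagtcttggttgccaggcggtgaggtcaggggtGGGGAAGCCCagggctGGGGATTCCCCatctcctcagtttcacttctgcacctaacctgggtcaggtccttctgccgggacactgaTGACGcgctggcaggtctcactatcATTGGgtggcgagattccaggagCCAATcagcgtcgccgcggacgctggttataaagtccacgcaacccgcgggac
H2-T23, chr17:36032702-36032951, minus strand: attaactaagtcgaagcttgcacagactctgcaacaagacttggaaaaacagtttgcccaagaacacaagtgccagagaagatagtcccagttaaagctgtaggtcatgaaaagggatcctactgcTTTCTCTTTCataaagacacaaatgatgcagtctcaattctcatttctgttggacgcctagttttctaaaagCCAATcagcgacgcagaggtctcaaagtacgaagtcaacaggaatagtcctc
B2m, chr2:122147437-122147686, plus strand: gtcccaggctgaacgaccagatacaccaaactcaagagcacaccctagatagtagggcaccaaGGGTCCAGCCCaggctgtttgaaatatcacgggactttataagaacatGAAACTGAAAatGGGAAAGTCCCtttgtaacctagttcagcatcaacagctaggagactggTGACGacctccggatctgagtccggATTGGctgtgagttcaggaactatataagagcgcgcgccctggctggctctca
Tap1, chr17:34187306-34187555, plus strand: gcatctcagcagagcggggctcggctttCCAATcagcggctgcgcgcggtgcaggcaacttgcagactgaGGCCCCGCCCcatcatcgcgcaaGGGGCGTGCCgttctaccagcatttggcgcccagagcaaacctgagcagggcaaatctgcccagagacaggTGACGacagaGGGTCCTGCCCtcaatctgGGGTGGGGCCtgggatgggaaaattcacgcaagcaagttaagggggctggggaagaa

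In these windows TGACG was found for 5 of the 8 genes, H2-K1, H2-D1, B2m, Tap1 and Psmb9, against 17.9% of the 27025 mouse promoters of the same length. ATTGG was found for 7 of the 8, all but Psmb8, against 34.5%, and the kappa B core for 5 of the 8, against 45.4%. In H2-K1, H2-D1 and B2m the TGACG match precedes ATTGG by the same spacing, as they start 41 and 16 bases before the annotated start in H2-K1, 101 and 76 in H2-D1, and 78 and 53 in B2m. The ISRE core was found for 2 of the 8, 139 bases before the start in B2m and, on the other strand, 124 bases before it in H2-T23, against 3.04% of all promoters. The GAS core was found for Psmb8 alone, against 7.18%. The Tap1 and Psmb9 windows share 225 of their 250 bases on opposite strands, so their matches are largely the same letters counted for both genes. The H2-K1 and H2-D1 windows were identical at 166 of 190 aligned bases (87.4%). A match describes these letters only and shows no binding. The search allowed no mismatch to the fixed letters, so the lack of a match does not show that an element is absent.

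Gene counts summed to between 25226357 and 28895657 per library. The targeted gene Noc2l stood at 107 and 97.4 CPM (counts over library totals scaled by TMM) in E15.5 controls and 95.6 and 91.6 CPM in knockouts (log2 fold change -0.12 ± 0.10, adjusted p = 0.33). At E17.5 it stood at 105 and 121 CPM in controls and 85.4 and 86.9 CPM in knockouts (-0.39 ± 0.10, adjusted p = 0.0062). The position of the loxP sites is not in the labels, and reads from untargeted cells and undeleted exons would be counted too, so this level is only a weak check of genotype. The tissue label was checked against 14 keratinocyte markers, whose summed level was 89579 to 91893 CPM in E15.5 control libraries and 49310 to 62274 CPM in E17.5 control libraries. The sum was 6738 to 6869 CPM in E15.5 knockout libraries and 2333 to 2569 CPM in E17.5 knockout libraries, and all 14 fell at both stages. Summed fibroblast markers, at 30172 to 36314 CPM over the control libraries of both stages, stood at 83495 to 102914 CPM in E15.5 and 105983 to 111626 CPM in E17.5 knockout libraries. In bulk RNA, fewer cells of a type and less RNA per cell cannot be told apart. Every level below is thus a level in a preparation whose mix of RNA differs between the groups.

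Across the pathway, 8 of the 10 genes rose in knockout epidermis at E15.5 and 0 fell, by edgeR's quasi-likelihood test with Benjamini-Hochberg adjustment over all genes at a threshold of 0.05. In the same comparison 23.2% of all genes tested rose, 22.3% fell and 45.5% changed in either direction. At E17.5 all 10 genes rose, against 26.7% of all genes risen, as many fallen and 53.5% changed in either direction. Since the 10 genes were chosen with earlier results known, these shares are a background for the counts and no test of the set. The median log2 fold change of the 10 genes was 0.80 at E15.5 and 1.43 at E17.5, where the median of all genes was -0.0047 and -0.023. Both knockout libraries were above both controls for 8 of the 10 genes at E15.5, where that held for 37.1% of all genes, and for all 10 genes at E17.5, where it held for 38.4%. With library totals as the only scaling, the median of all genes at E17.5 was -0.235, with 3295 risen and 6284 fallen in place of 4371 and 4364. All 10 genes rose under that scaling too, with a median of 1.22.

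**Figure D1:**
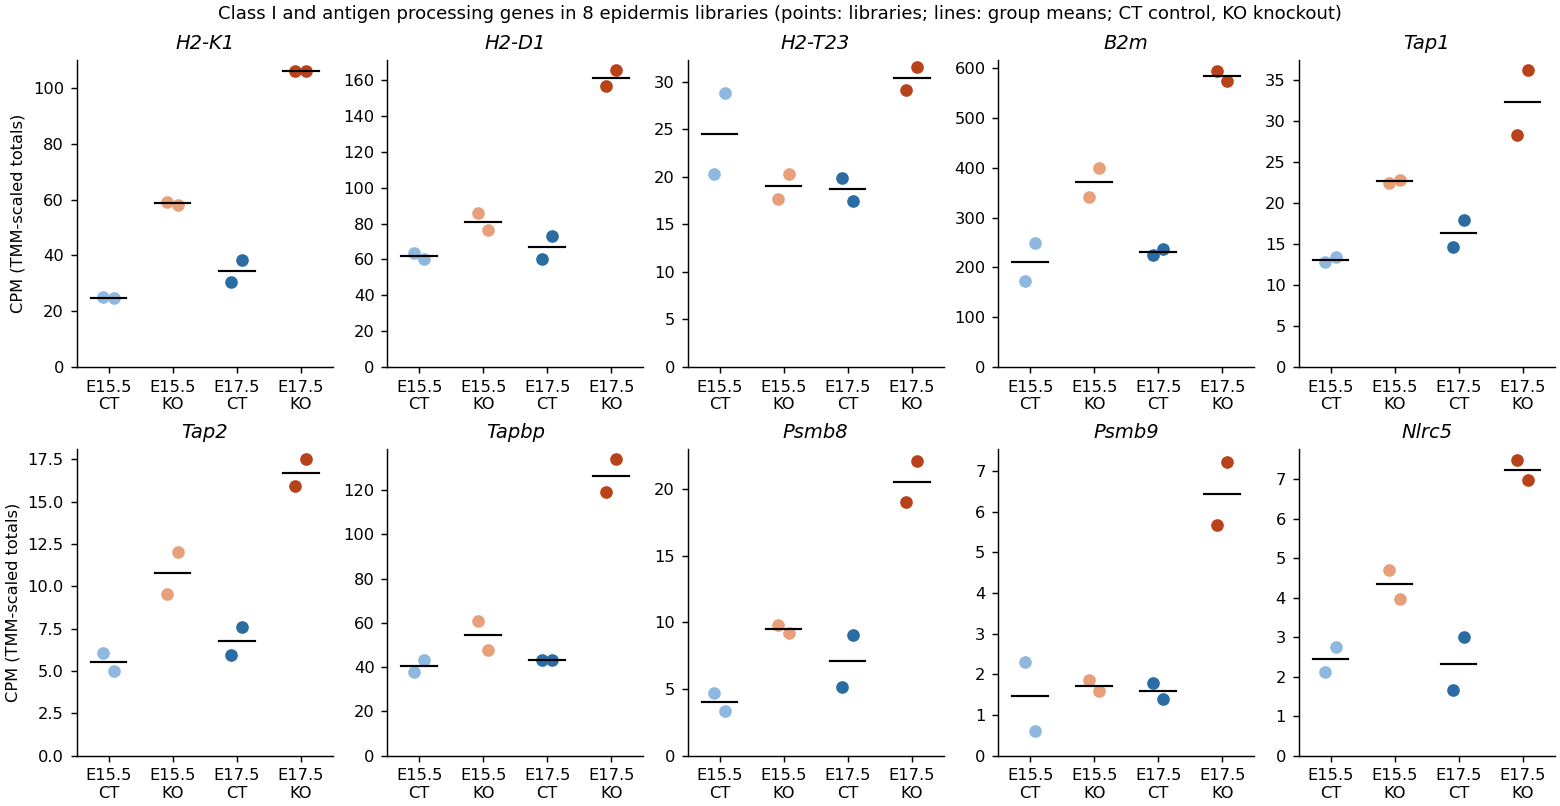
Level of each of the 10 genes in the 8 libraries, in CPM on TMM-scaled totals, with a separate axis from 0 for each gene; points are libraries and lines are means of 2. The E17.5 knockout libraries are the highest of all 8 in every panel, for example 595 and 574 CPM for B2m, while H2-T23 and Psmb9 lie close to their controls at E15.5.

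The light chain gene B2m, whose product pairs with class I heavy chains, was the most abundant member. At E15.5 the controls held 172 and 248 CPM and the knockouts 341 and 400 CPM, and at E17.5 these were 224 and 237 CPM against 595 and 574 CPM. The groups did not overlap at either stage, although the E15.5 controls were wide apart. On the log2 scale B2m rose by 0.82 ± 0.16 (SE from the fit, 2 libraries a group, adjusted p = 0.0013) at E15.5 and by 1.34 ± 0.16 (adjusted p = 3e-05) at E17.5.

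H2-K1, a classical heavy chain that presents peptides to CD8 T cells, rose at both stages. Its level was 25.2 and 24.6 CPM in E15.5 controls against 59.2 and 58.2 CPM in knockouts, and 30.3 and 38.2 CPM against 106 and 106 CPM at E17.5. Both knockout groups stood well clear of their controls. The log2 fold change was 1.24 ± 0.12 at E15.5 (adjusted p = 8.6e-06) and 1.63 ± 0.12 at E17.5 (adjusted p = 6.2e-07), 3.09-fold.

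H2-D1, the other classical heavy chain, moved less at the earlier stage. It stood at 63.4 and 60.2 CPM in E15.5 controls against 86 and 76.3 CPM in knockouts, and at 60.1 and 73.3 CPM against 157 and 166 CPM at E17.5. The groups did not overlap at either stage, but the distance at E15.5 was small. H2-D1 rose by 0.39 ± 0.11 (log2, adjusted p = 0.015) at E15.5 and by 1.28 ± 0.11 (adjusted p = 3.5e-06) at E17.5. Leaving out E15.5 control replicate 2 (0.35, adjusted p = 0.091) or E15.5 knockout replicate 1 (0.30, adjusted p = 0.12) ended the E15.5 call.

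H2-T23 encodes Qa-1, a non-classical heavy chain that shows signal peptides of other class I molecules to natural killer cell receptors. It was 20.3 and 28.8 CPM in E15.5 controls against 17.7 and 20.3 CPM in knockouts, so that the upper knockout library lay level with the lower control. At E17.5 it was 19.9 and 17.461 CPM against 29.2 and 31.6 CPM, clear of the controls. Its log2 fold change at E15.5, -0.37 ± 0.17, was not called (adjusted p = 0.09), and H2-T23 rose by 0.71 ± 0.16 at E17.5 (adjusted p = 0.0037). Without E15.5 control replicate 1 the E15.5 value was -0.60 (adjusted p = 0.015). The heavy chain transcripts resemble each other, with 90.7% identity over 1472 aligned bases and an identical run of 91 bases between H2-K1 and H2-D1, and a run of 145 bases between H2-D1 and H2-T23. How reads matching several places were counted is not given in the sources used here, so their division between these genes is uncertain. The heavy chains also differ between mouse strains, and the counts are of reads that matched the mm10 reference.

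The genes that carry peptides to the heavy chains rose at both stages. Tap1, a transporter subunit, was 12.8 and 13.4 CPM in E15.5 controls against 22.5 and 22.8 CPM in knockouts, and 14.7 and 17.9 CPM against 28.3 and 36.3 CPM at E17.5. Tap2, its partner subunit, was 6.08 and 4.99 CPM against 9.55 and 12 CPM, and 5.94 and 7.61 CPM against 15.9 and 17.497 CPM. For both genes, each knockout library was above each control of its stage. The log2 fold change of Tap1 was 0.79 ± 0.15 (adjusted p = 0.0014) and 0.98 ± 0.15 (adjusted p = 2e-04), and that of Tap2 was 0.96 ± 0.19 (adjusted p = 0.0019) and 1.30 ± 0.19 (adjusted p = 0.00014). Of all pairs among the 10 genes, Tap1 and Tap2 had the next smallest difference in pattern, after H2-D1 and Tapbp (root mean square difference of centred log2 CPM over 8 libraries, 0.18 and 0.15).

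Tapbp encodes tapasin, which holds the empty heavy chain at the transporter until a peptide binds. It was 38 and 43.1 CPM in E15.5 controls against 60.7 and 47.9 CPM in knockouts, and 43 and 43.2 CPM against 119 and 134 CPM at E17.5. The E15.5 knockout replicates were spread while the E17.5 groups lay far apart. Tapbp rose by 0.42 ± 0.13 (adjusted p = 0.019) and by 1.55 ± 0.13 (adjusted p = 1.8e-06), which is 2.93-fold at E17.5. The E15.5 call ended when E15.5 control replicate 1 (0.34, adjusted p = 0.13) or E15.5 knockout replicate 1 (0.24, adjusted p = 0.2) was left out.

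Psmb8 and Psmb9 encode catalytic subunits of the immunoproteasome, which take the place of Psmb5 and Psmb6 in newly built proteasomes and change the peptides made. Psmb8 was 4.68 and 3.38 CPM in E15.5 controls against 9.77 and 9.18 CPM in knockouts, and 5.18 and 9.08 CPM against 19 and 22.1 CPM at E17.5. It rose by 1.23 ± 0.26 (adjusted p = 0.0023) and 1.52 ± 0.24 (adjusted p = 0.00027), with no overlap of groups within a stage. Psmb9 was measured by few reads at E15.5, with 61 and 16 counts in the controls (2.3 and 0.614 CPM) against 50 and 45 counts in the knockouts (1.85 and 1.58 CPM). The knockout libraries lay between the 2 controls, and the estimate of 0.23 ± 0.47 had an adjusted p of 0.72. The estimate became 1.48 with control replicate 1 left out (adjusted p = 0.023) and -0.43 with control replicate 2 left out (adjusted p = 0.37). At E17.5 Psmb9 went from 1.78 and 1.38 CPM to 5.66 and 7.22 CPM, a rise of 2.03 ± 0.43 (adjusted p = 0.0021) or 4.08-fold.

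Set against its constitutive counterpart, each immunoproteasome subunit stood highest in the E17.5 knockout. The comparison used RPKM, which is CPM per kilobase of exon. Psmb8 amounted to 6.68% and 5.78% of Psmb5 in E15.5 controls, 20.9% and 12.2% in E15.5 knockouts, 10.9% and 15.1% in E17.5 controls and 32.4% and 45.5% in E17.5 knockouts. Psmb9 amounted to 1.63% and 0.408% of Psmb6 in E15.5 controls, 1.48% and 1.35% in E15.5 knockouts, 1.29% and 0.926% in E17.5 controls and 5.23% and 5.65% in E17.5 knockouts. Psmb10, the remaining inducible catalytic subunit, amounted to 5.41% and 5.55% of Psmb7 in E15.5 controls against 10.8% and 9.8% in knockouts, and to 6.51% and 6.75% against 21.4% and 20.3% at E17.5. The constitutive transcript was thus the more abundant of each pair in all 8 libraries. These ratios are descriptions and were not tested. Psmb10 itself rose by 0.69 ± 0.14 at E15.5 (adjusted p = 0.0017) and 1.25 ± 0.13 at E17.5 (adjusted p = 1.4e-05). Over all genes tested, 23.2% rose and 22.3% fell at E15.5, and 26.7% rose and 26.7% fell at E17.5. Of 14 constitutive subunit genes of the core proteasome, 0 rose at either stage, with medians of -0.27 and -0.32. Among them 2 fell at E15.5 (Psma1 and Psmb4) and 10 fell at E17.5. The E17.5 count was 1 without E17.5 knockout replicate 1, 3 without E17.5 control replicate 2 and 12 with library totals as the only scaling, and the E15.5 count was 0 to 6 over the alternatives. Psmb5 did not pass at either stage (-0.08 ± 0.20, adjusted p = 0.78, and -0.01 ± 0.20, adjusted p = 0.98).

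**Figure D2:**
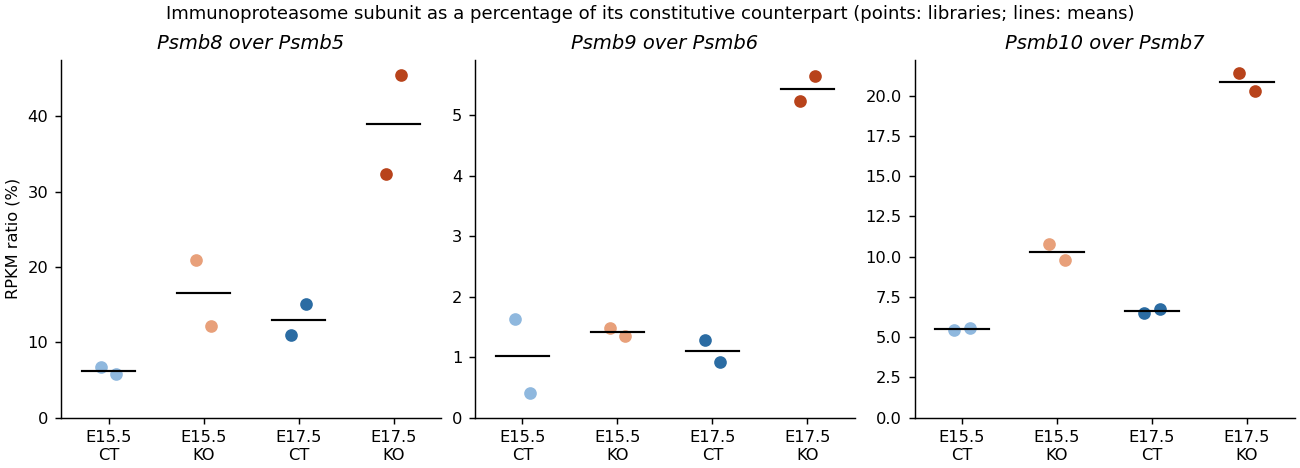
Each immunoproteasome subunit as a percentage of its constitutive counterpart in the 8 libraries, as a ratio of RPKM values on axes from 0; points are libraries and lines are means of 2. Psmb8 reaches 32.4% and 45.5% of Psmb5 in E17.5 knockout libraries, while Psmb9 stays below 2% of Psmb6 everywhere else and reaches 5.23% and 5.65% there.

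Nlrc5 encodes a NOD-like receptor protein that acts as transactivator of class I genes. The protein assembles with RFX, CREB and NF-Y factors on promoter elements that include the X2 and Y boxes. Nlrc5 was the least abundant member per length and was measured by few reads. Its counts were 56 and 72 in E15.5 controls against 127 and 113 in E15.5 knockouts. At E17.5 they were 46 and 93 in controls against 205 and 194 in knockouts. These are 2.11 and 2.76 CPM against 4.7 and 3.97 CPM at E15.5, and 1.67 and 2.99 CPM against 7.48 and 6.97 CPM at E17.5. Each knockout library was above each control of its stage. Nlrc5 rose by 0.83 ± 0.29 (adjusted p = 0.036) and 1.63 ± 0.28 (adjusted p = 0.00053). The Nlrc5 call at E15.5 did not survive the loss of any E15.5 library, at 0.65 without control replicate 1 (adjusted p = 0.18), 1.03 without control replicate 2 (0.053), 0.70 without knockout replicate 1 (0.15) and 0.94 without knockout replicate 2 (0.053).

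**Figure D3:**
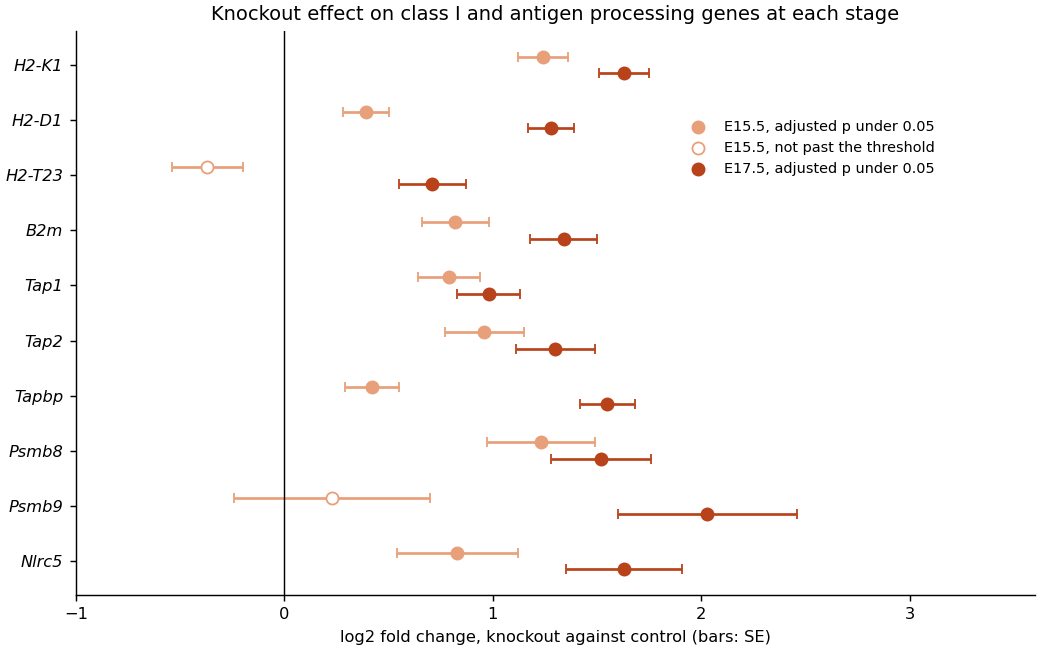
Log2 fold change of each gene, knockout against control, at E15.5 (pale) and E17.5 (dark), with bars of 1 SE from the edgeR fit to 8 libraries; filled points passed an adjusted p of 0.05. All 10 dark points are filled and right of 0, from 0.71 for H2-T23 to 2.03 for Psmb9, and the 2 open points are H2-T23 and Psmb9 at E15.5.

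Per length, the members spanned a wide range of levels. In E15.5 controls B2m stood at 245 ± 62.3 RPKM (mean ± SD of 2 libraries), H2-D1 at 35.6 ± 1.33, H2-T23 at 18.7 ± 4.54, H2-K1 at 15.4 ± 0.243 and Tapbp at 14.8 ± 1.30 RPKM, and the last 3 did not differ beyond their spread. Tap1 followed at 4.44 ± 0.128 RPKM, Psmb8 at 3.29 ± 0.752, Tap2 at 2.22 ± 0.308, Psmb9 at 1.67 ± 1.36 and Nlrc5 at 0.351 ± 0.0663 RPKM. Psmb9 and its neighbour Tap2 in this order overlapped. In E17.5 knockouts the order from the top was B2m (681 ± 17.2 RPKM), H2-D1 (93.2 ± 3.59), H2-K1 (65.4 ± 0.215), Tapbp (46 ± 3.83), H2-T23 (23.1 ± 1.30), Psmb8 (16.8 ± 1.80) and Tap1 (10.9 ± 1.92). Psmb9 (7.36 ± 1.26) and Tap2 (6.71 ± 0.449) overlapped, and Nlrc5 was again the lowest at 1.04 ± 0.0522 RPKM. Between these groups, which differ in both stage and genotype, Psmb8 moved above Tap1. H2-K1 and Tapbp stood above H2-T23 in E17.5 knockouts, where in E15.5 controls they had not differed from it beyond their spread. Exon lengths were taken from GENCODE M21 within the RefSeq span, so values between genes are approximate.

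The knockout effect was larger at E17.5 than at E15.5 for 3 of the 10 genes by the test of the difference itself, against 1.88% of all genes that differed in that direction, 2.47% in the other and 4.35% in all. Tapbp differed most clearly, by 1.13 ± 0.18 (log2, adjusted p = 0.0046), followed by H2-D1 (0.88 ± 0.16, adjusted p = 0.01) and H2-T23 (1.07 ± 0.23, adjusted p = 0.025). Psmb9 had the largest estimate, 1.80 ± 0.64, and did not pass (adjusted p = 0.15), as did the other 6 genes (0.19 to 0.80). The Tapbp call held when any single library was left out. That of H2-D1 ended when E15.5 knockout replicate 2 was left out (0.78, adjusted p = 0.053), and that of H2-T23 when any one of 6 of the 8 libraries was left out (0.80 to 1.16, adjusted p = 0.053 to 0.086) and with library totals as the only scaling (0.86, adjusted p = 0.061).

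In control epidermis few genes of the pathway passed between the stages. H2-K1 rose from 24.9 ± 0.394 to 34.2 ± 5.54 CPM (log2 fold change 0.46 ± 0.12, adjusted p = 0.029), and the other 9 genes did not pass, at -0.40 to 0.83, in a comparison where 3.15% of all genes rose, 7.7% fell and 10.9% changed. The H2-K1 call ended when E15.5 control replicate 1 (0.48, adjusted p = 0.1) or 2 (0.44, adjusted p = 0.17) or E17.5 control replicate 2 (0.28, adjusted p = 0.25) was left out, and with only the groups compared in the fit (0.48, adjusted p = 0.052). In knockout epidermis 9 of the 10 genes were higher at E17.5 than at E15.5, all but Nlrc5 (0.74 ± 0.27, adjusted p = 0.11), where 6.19% of all genes rose, 6.91% fell and 13.1% changed. The increases ran from 0.51 ± 0.15 for Tap1 (adjusted p = 0.042) to 1.91 ± 0.43 for Psmb9 (adjusted p = 0.012), with Tapbp at 1.22 ± 0.13 (adjusted p = 6.2e-05) and H2-K1 at 0.85 ± 0.11 (adjusted p = 0.00042). That count was 5 without E15.5 knockout replicate 1, 4 without E15.5 knockout replicate 2 and 4 without E17.5 knockout replicate 2. These comparisons share libraries with the knockout comparisons and are not independent of them.

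Related class I genes were mixed. Of 18 listed, 17 were in the files and 14 were tested. Of these, 6 rose and 1 fell at E15.5 and 9 rose and 1 fell at E17.5 (medians 0.73 and 1.12). Shares over all genes tested were 23.2% risen and 22.3% fallen at E15.5, and 26.7% each at E17.5. H2-Q10, a secreted class I molecule known mainly from liver, was 17 and 34 counts in E15.5 controls against 168 and 233 in knockouts and rose by 2.89 ± 0.33 (adjusted p = 3.4e-05), and by 3.12 ± 0.34 at E17.5 (adjusted p = 1.4e-05). H2-Q7 rose by 2.07 ± 0.39 and 1.47 ± 0.36 (adjusted p = 0.0012 and 0.0048), but its counts nearly equal those of its copy H2-Q9 and the 2 cannot be separated. Fcgrt, the neonatal Fc receptor that also pairs with beta-2-microglobulin, rose by 1.03 ± 0.14 and 1.38 ± 0.14 (adjusted p = 0.00012 and 9.6e-06). Mr1, which presents vitamin metabolites to mucosal T cells, fell by 0.74 ± 0.20 at E15.5 and by 1.05 ± 0.20 at E17.5 (adjusted p = 0.011 and 0.00094). Among the other H2-T genes, H2-T22 was -0.21 ± 0.11 at E15.5 (adjusted p = 0.14) and 0.62 ± 0.11 at E17.5 (adjusted p = 0.00076), H2-T24 was -0.02 ± 0.21 (adjusted p = 0.94) and 0.96 ± 0.20 (adjusted p = 0.0019), and H2-T10 was -0.37 ± 0.21 (adjusted p = 0.19) and 0.32 ± 0.21 (adjusted p = 0.22). H2-T3, with at most 2 counts in a library, was not tested. The H2-T genes were named after their values were seen.

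The general machinery of peptide supply did not move one way. Of 19 genes, 5 rose and 6 fell at E15.5 and 5 rose and 5 fell at E17.5 (medians 0.04 and 0.12). Among all genes tested 23.2% rose and 22.3% fell at E15.5, and 26.7% rose and 26.7% fell at E17.5. The counts of the list lie near these shares and do not set it apart from other genes. Besides Psmb10, the translocon gene Sec61a1 rose by 0.60 ± 0.12 (adjusted p = 0.0018) and Uggt1, which checks glycoprotein folding, by 0.45 ± 0.10 (adjusted p = 0.003) at E15.5, and at E17.5 Uggt1 rose by 0.48 ± 0.10 (adjusted p = 0.0016) and Erap1, the aminopeptidase that trims peptides for class I, by 0.58 ± 0.13 (adjusted p = 0.0024). The cytosolic peptidase genes Blmh (-2.37 ± 0.15 and -2.05 ± 0.15), Nrd1 (-1.43 ± 0.13 and -1.31 ± 0.13) and Thop1 (-1.11 ± 0.10 and -1.22 ± 0.10) fell at E15.5 and E17.5. Blmh is also known in keratinocytes for breaking down filaggrin, and keratinocyte markers fell in the same libraries (medians -2.13 and -3.36). The part of the lower keratinocyte marker level in these falls was not tested. The count of risen genes at E15.5 was 3 without E15.5 control replicate 1 or E15.5 knockout replicate 1, and at E17.5 it was 3 under library totals. Fallen genes at E17.5 numbered 3 without E17.5 control replicate 1, E17.5 knockout replicate 1 or E17.5 knockout replicate 2.

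Regulators of class I genes rose more often than they fell. Of 28, 13 rose and 3 fell at E15.5 and 18 rose and 3 fell at E17.5 (medians 0.31 and 0.45), and the first count was 7 and 0 without E15.5 control replicate 1, while library totals gave 14 and 7 at E17.5. Fallen regulators at E15.5 numbered 0 to 5 over the alternatives. Over all genes tested, 23.2% rose and 22.3% fell at E15.5, and 26.7% rose and 26.7% fell at E17.5. Irf1, an interferon-induced activator of class I and TAP genes, rose by 1.54 ± 0.21 at E15.5 (adjusted p = 0.00012) and 1.65 ± 0.20 at E17.5 (adjusted p = 4.2e-05). Irf8, a factor of myeloid cells, rose by 1.37 ± 0.20 and 1.76 ± 0.19 (adjusted p = 0.00017 and 1.6e-05). Irf7, the inducible factor of the interferon response, rose by 2.44 ± 0.25 (adjusted p = 1e-05) and Nfkb2, an NF-kappa B subunit, by 1.45 ± 0.14 (adjusted p = 6.2e-06) at E17.5. The DNA-binding partners of NLRC5 did not rise: Rfx5 was -0.05 ± 0.13 at both stages (adjusted p = 0.78 and 0.79), and Rfxank fell by 0.34 ± 0.10 and 0.32 ± 0.10 (adjusted p = 0.021 and 0.022).

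Genes that interferons induce were higher across the list. Of 23, 21 rose at E15.5 and 23 at E17.5 (medians 1.55 and 2.22) and 0 fell, with the antiviral gene Rsad2 at 2.85 ± 0.21 and 2.43 ± 0.20 (adjusted p = 1.2e-06 and 1.9e-06) and the immunity-related GTPase gene Igtp at 1.22 ± 0.13 and 1.70 ± 0.14 (adjusted p = 2.4e-05 and 1.3e-06). The E15.5 median of this list was 1.32 when E15.5 knockout replicate 2 was left out, and fewer of its genes passed then. In E15.5 knockout replicates 1 and 2, Isg15 had 74 and 172 counts and Ifit1 had 100 and 225. Ifi35 (340 and 334), Bst2 (1328 and 1098) and Gbp3 (145 and 131) were not higher in replicate 2. The summed level of the list was 114 to 117 CPM in E15.5 controls against 256 to 302 CPM in knockouts. Shares over all genes tested were 23.2% risen at E15.5 and 26.7% at E17.5. The 6 interferon genes listed had few or no reads in every group, and interferon alpha genes were not examined. Ifng had 2 counts in 1 E17.5 control library and 0 in the other 7, Ifnb1 had 2 counts in 1 E17.5 knockout library and 0 in the other 7, Ifnk had 1 and 3 counts in an E15.5 control and an E15.5 knockout library and 2 in an E17.5 control library, and Ifne, Ifnl2 and Ifnl3 had 0 in all 8. Of 8 cytokine genes listed, Il18 alone passed the filter, and it fell by 1.96 ± 0.14 and 1.93 ± 0.14 (adjusted p = 8.5e-07 and 7.8e-07).

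**Figure D4:**
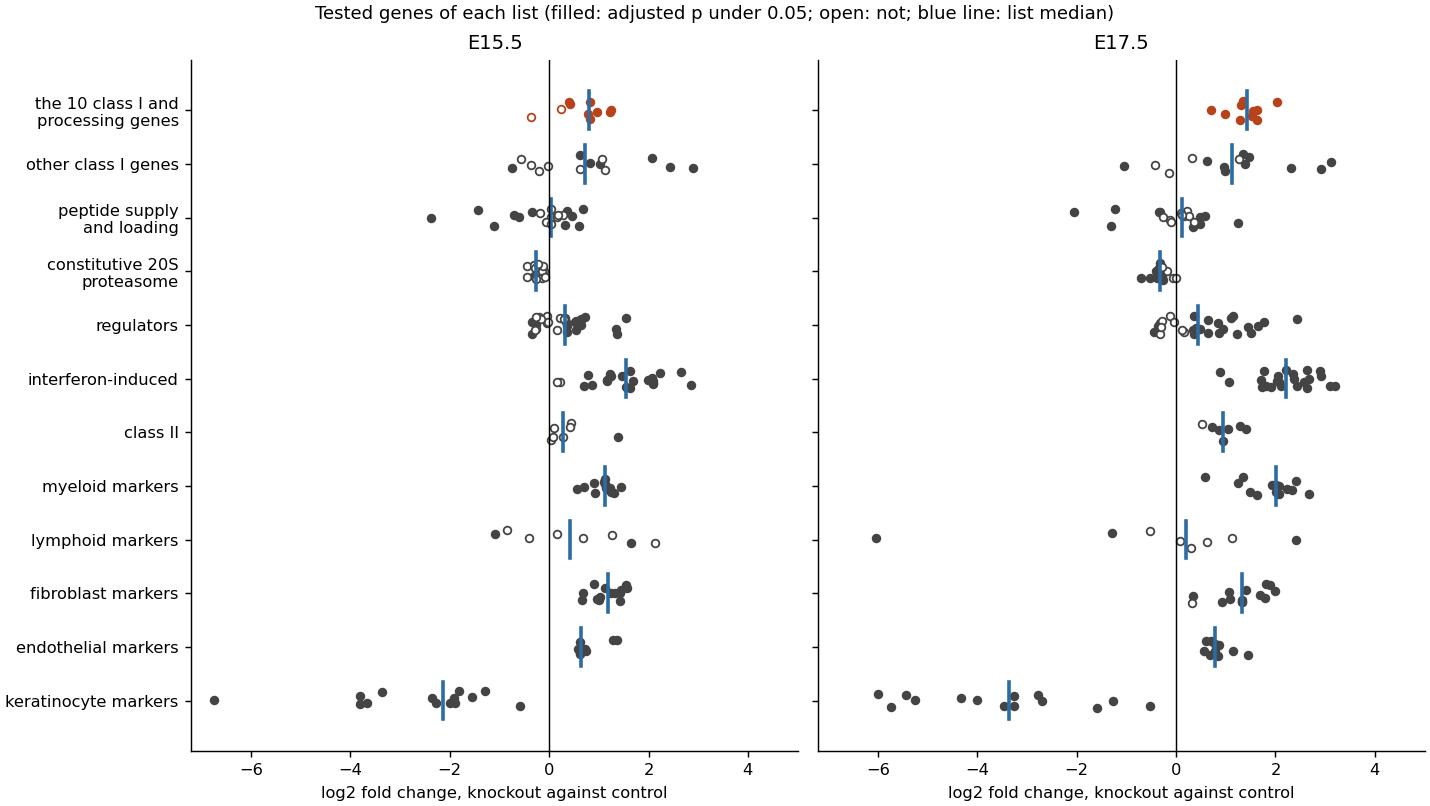
Log2 fold changes, knockout against control, of the tested genes of 12 lists at E15.5 (left) and E17.5 (right); filled points passed an adjusted p of 0.05, open points did not, and blue lines are list medians. The median of the 10 pathway genes (red) moves from 0.80 to 1.43, between those of class II genes (0.28 and 0.94) and interferon-induced genes (1.55 and 2.22), and keratinocyte markers lie far to the left (-2.13 and -3.36).

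Of the marker lists for other cells, those for myeloid, fibroblast, endothelial and erythroid cells rose, and that for lymphoid cells was mixed. Shares over all genes tested were 23.2% risen and 22.3% fallen at E15.5, and 26.7% each at E17.5. Of 16 myeloid markers, 15 were in the files and 14 were tested, and all 14 rose at both stages (medians 1.13 and 2.01). The E17.5 count was 13 with DESeq2, library totals, no filter on low counts or summed transcripts. Fewer passed at E15.5 without E15.5 control replicate 2 (median 1.1) or E15.5 knockout replicate 1 (median 1.12). Their summed level was 443 to 451 CPM in E15.5 controls against 973 to 1008 CPM in knockouts, and 478 to 486 CPM against 1674 to 1911 CPM at E17.5. Ptprc, the pan-leukocyte marker, rose by 0.92 ± 0.12 (adjusted p = 8.1e-05) and 1.49 ± 0.12 (adjusted p = 1.3e-06), while Cd207, the marker of mature Langerhans cells, had 0 counts in all 8 libraries. All 10 endothelial markers rose at both stages (medians 0.64 and 0.78), with sums of 525 to 528 against 868 to 893 CPM and of 471 to 476 against 826 to 859 CPM. Library totals gave 9 at E17.5, and fewer passed at E15.5 without any one E15.5 library (medians 0.65 to 0.67). Of 14 fibroblast markers 14 and 13 rose (medians 1.19 and 1.32). All 7 erythroid markers in the files rose (medians 2.74 and 3.23), with sums of 7561 to 10650 against 42269 to 76150 CPM and of 2978 to 3235 against 33691 to 35614 CPM. Of 12 lymphoid markers, 8 were tested, of which 1 rose and 1 fell at E15.5 and 1 rose and 2 fell at E17.5, and their summed level was 11.3 to 14.2 CPM in E15.5 controls against 10 to 11.2 CPM in knockouts, and 13.3 to 15 CPM against 8.66 to 10.8 CPM at E17.5. Lck, a kinase of T cell receptor signalling, fell at both stages (-1.08 ± 0.30, adjusted p = 0.012, and -1.29 ± 0.30, adjusted p = 0.0039), and its E15.5 call ended when E15.5 control replicate 1 or E15.5 knockout replicate 1 was left out. Cd3g, a T cell receptor subunit, had 35 and 53 counts in E17.5 controls against 0 and 1 in knockouts (adjusted p = 0.00039). The rises were of genes with few reads, as Cd3e had 5 and 4 counts in E15.5 controls against 16 and 14 in knockouts, and Cd2 had 2 and 4 in E17.5 controls against 20 and 11. The Cd3e call was lost without any one of the 8 libraries and the Cd2 call without any one of 3. MHC class II genes, which mark professional antigen-presenting cells, rose for 1 of 7 at E15.5 (H2-Eb1, 1.38 ± 0.23, adjusted p = 0.0005) and 6 of 7 at E17.5, and the latter count was 3 without E17.5 control replicate 1. Class II sums were 33.1 to 35 against 43.6 to 50.9 CPM and 38.6 to 52 against 85.7 to 96.8 CPM. The part of these cells in the class I changes was not tested.

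Likeness in pattern was ranked over 13564 genes outside the pathway whose log2 CPM averaged 1 or more. The genes whose pattern over the 8 libraries was closest to H2-K1 were Spi1, Ly6c1, P2ry6, Pik3ap1 and Serping1, at a root mean square difference of 0.10 to 0.12 in centred log2 CPM. Spi1, which encodes a transcription factor of myeloid cells, was 8.68 and 9.79 CPM in E15.5 controls, 18.7 and 18.7 in E15.5 knockouts, 9.57 and 12.8 in E17.5 controls and 35.9 and 36.3 in E17.5 knockouts. Closest to Tap1 were Hlx, Socs2, Trim21, Bgn and Atp2a3 (0.09 to 0.10), and closest to Nlrc5 were Dennd1c, Gsdmd, Fes, Fermt3 and Kcnab2 (0.11 to 0.19). The other pathway genes were farther from H2-K1 than these, from 0.21 for Tap2 to 0.72 for H2-T23. All of these patterns rest on the same 8 libraries and on their 4 groups.

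Around the transporter genes, the 4 processing genes lie side by side among class II genes. Within 100 kb of the Tap1 start, 10 genes were tested. Shares of all genes tested that rose were 23.2% at E15.5 and 26.7% at E17.5. At E15.5 Tap1 (0.79), Psmb8 and Tap2 rose. Psmb9 (0.23, adjusted p = 0.72) and the 6 neighbours outside the pathway did not pass. Those 6 ran from -0.18 for Brd2 to 0.77 for H2-DMb2 (adjusted p = 0.41), a value close to that of Tap1. At E17.5 all 4 processing genes rose, as did H2-DMa (0.73, adjusted p = 0.045), H2-Ab1 (0.94, adjusted p = 0.011) and H2-Aa (0.86, adjusted p = 0.0022). Brd2 (-0.03, adjusted p = 0.84), H2-DMb1 (0.52, adjusted p = 0.18) and H2-DMb2 (1.17, adjusted p = 0.15) did not pass. In GENCODE M21 the spans of Tap1 and Psmb9 overlap by 212 bases on opposite strands, B2m lies wholly within the span of Patl2 on the other strand, and H2-T23, Tap2, Tapbp, Psmb8 and Nlrc5 also overlap other annotated genes. The strand setting of the counting is not given in the sources used here, so reads from such partners cannot be told apart from those of these genes.

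**Figure D5:**
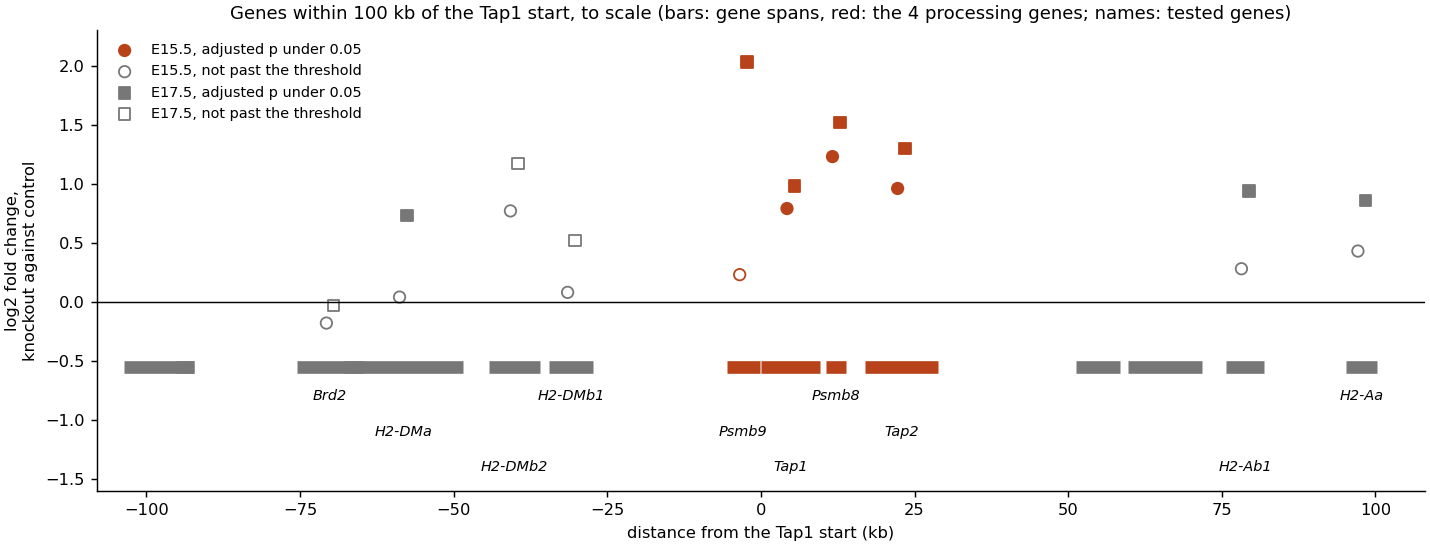
Log2 fold changes, knockout against control, of the tested genes within 100 kb of the Tap1 start, against distance in kb; circles are E15.5, squares E17.5, filled symbols passed an adjusted p of 0.05, bars below show gene spans to scale and red marks the 4 processing genes. The red squares lie at 0.98 to 2.03 and those of Brd2 and the class II genes at -0.03 to 1.17.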

How the data were processed

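RNA from mouse epidermis was sequenced in 8 libraries, 2 in each of 4 groups. Per the series design text, the authors aligned reads to mm10 with TopHat version 2 and counted them with HOMER, and the deposited values are raw counts per RefSeq transcript with no normalization. The HOMER version, strand setting and handling of multiply matching reads are not given here. Of 30521 transcripts, 29908 were named from RefSeq (GRCm38.p6) and 182 from GENCODE M21. The 431 without a name held 1.43% to 2.68% of a library's counts and were left out. Tables joining the libraries of a stage hold 8 columns without names and were not used.

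Tests used edgeR 4.0.16 in R 4.3.3 on genes kept by filterByExpr, with TMM scaling and 1 mean per group fitted to all 8 libraries. P-values were adjusted by Benjamini-Hochberg over the 16342 genes tested, with a threshold of 0.05. Each SE was taken from the fold change and its F statistic. Groups of 2 libraries allow no exact permutation p below 0.333, so none was used. The fit was tested on simulated data in which few genes changed, as many up as down. That setting lacks the wide shifts of these libraries and gives no check of the scaling under them. The 10 genes, the lists and the rule for naming genes (the 10, up to 3 called per list, direction and knockout comparison, and 5 most alike in pattern to each of H2-K1, Tap1 and Nlrc5) were chosen with earlier results of these data known; not every gene that the rule allows is named. Alternatives were other size factors, library totals, DESeq2 1.42.0, other filters, summed transcripts, only the groups compared, a replicate block and leaving out each library.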

Additional observations from a re-analysis of the deposited data

Results flagged for a closer look

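Of the 10 genes, 3 were singled out because the knockout effect differed between the stages by the test of that difference (edgeR). The effect at E17.5 exceeded that at E15.5 by 0.88 ± 0.16 (log2, adjusted p = 0.01) for H2-D1, by 1.07 ± 0.23 (adjusted p = 0.025) for H2-T23 and by 1.13 ± 0.18 (adjusted p = 0.0046) for Tapbp. In each case both knockout libraries were higher than both controls at E17.5, as they were for all 10 genes and for 38.4% of all genes tested. The 3 genes were picked for a larger effect at E17.5, so this separation adds no support. Of all genes tested, 1.88% differed between the stages in that direction. H2-T23 had negative and positive estimates at the 2 stages (-0.37, not past the test, and 0.71), and its difference between stages was lost when any one of 6 libraries was left out.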

How the results depend on the processing

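At E17.5 all 10 genes rose under every alternative run. At E15.5, 5 to 8 rose and 0 to 1 fell when a library was left out, the lowest without E15.5 knockout replicate 1, and 8 rose under the other alternatives. For the difference between stages 1 to 3 genes passed without a library. In control epidermis between stages 0 to 2 rose and 0 to 1 fell without a library, 2 rose with library totals, with no filter and with DESeq2, and 0 with only the groups compared. In knockout epidermis between stages 4 to 9 rose without a library. Of 790 values for single genes under alternatives, 728 kept their direction and side of the threshold, 42 lost the call, 9 gained it and 11 changed sign, and none of the 11 was past the threshold in either fit. Library totals turned the difference between stages for Tap1 (-0.02) and the control change between stages of Nlrc5 (0.14). The other 9 came from leaving out a library. Psmb9 at E15.5 ranged from -0.43 (without E15.5 control replicate 2) to 1.48. The difference between stages ranged from -0.01 to 0.35 for Tap1 and from -0.06 to 0.75 for Psmb8. In control epidermis between stages the range was -0.04 to 0.25 for H2-D1, -0.11 to 0.42 for B2m, -0.55 to 1.35 for Psmb9 (-0.08 without E17.5 control replicate 1) and -0.55 to 0.29 for Nlrc5 (0.15 without E15.5 control replicate 2). The cause was not tested. Deviations of same-numbered replicates correlated at 0.0425 at E15.5 and -0.0698 at E17.5. These values gave no sign that the numbers pair the samples, but they cannot exclude a shared litter or batch. With a replicate block 8 of the genes rose at E15.5 and 10 at E17.5. Of all genes, 3894 and 4481 rose with the block, in place of 3792 and 4371. Few reads limit Psmb9 (16 to 201 counts per library) and Nlrc5 (46 to 205).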
